A study of Mus musculus with 124 samples.

Results

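DNA methylation was examined at 33 genes that define microglia or mark their response to plaques, in the entorhinal cortex of rTg4510 and J20 mice. The members were taken from a list of named genes, and every CpG site from 2 kb upstream of a gene to its end in the GENCODE vM21 annotation of GRCm38 was assigned to it. Of the 21951 protein-coding genes of that annotation, these 33 names make up the list, with Clec7a annotated there as a polymorphic pseudogene. Sites were found in 26 of the 33 genes in each mouse model, 1843 CpG sites of 1558888 in rTg4510 and 1866 of 1582443 in J20 mice.

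Microglia are the resident macrophages of the brain. They depend on signalling through the receptor encoded by Csf1r and on transcription factors such as Spi1, Irf8 and Sall1, and at rest they express receptors such as P2ry12 and Cx3cr1. Around amyloid plaques and degenerating neurons they multiply and, through Trem2 and its partner Tyrobp, switch on genes for lipid handling and lysosomes, such as Lpl and Cst7, and others such as Itgax and Axl. DNA at the regulatory parts of such genes tends to be unmethylated in the cells that use them and methylated in most other brain cells, so a larger share of microglia in a tissue sample would be expected to lower DNAm levels there. The comparison asked whether member sites had lower DNAm levels in older TG mice of each model.

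All mice were female. rTg4510 TG mice overexpress mutated human MAPT, which encodes tau, under a CaMKIIα-driven transactivator that is active in forebrain neurons, and J20 TG mice carry a mutated human APP transgene, which encodes the amyloid precursor protein. WT littermates of the same ages served as controls. The rTg4510 set held 31 WT and 30 TG animals, sampled at 2, 4, 6 or 8 months of age. The J20 set held 32 WT and 31 TG animals of 6, 8, 10 or 12 months, and every group numbered 7 or 8. At the oldest age there were 8 WT and 7 TG rTg4510 mice and 8 WT and 8 TG J20 mice. Each mouse gave 1 sample of the left entorhinal cortex, measured by reduced representation bisulfite sequencing (RRBS), which reads CpG-rich fragments cut at CCGG. The samples are whole tissue and no RNA was analysed here, so the share of microglia could not be checked from marker expression, and a change in the number of microglia cannot be told apart from a change in DNAm within a cell type.

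A DNAm level is the percentage of reads in which a cytosine stayed unconverted, smoothed over neighbouring sites by the authors. The number of reads behind each value is not given in the deposited tables, so the error of a level is the spread between mice. Levels of mice in the same group correlated with a Pearson r of 0.846 to 0.957 in rTg4510 and 0.848 to 0.940 in J20 mice across sites, which are not independent replicates. A pair of rTg4510 WT mice at 2 months had mean levels of 20.6% and 21.6% over all sites, against group means of 24.01% to 25.5%, and results that depend on them are named where they occur.

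No site was found in Cd33, Cd68, Clec7a, Cst7, Gpr34, P2ry13 and Tyrobp in either model. They were therefore not analysed further, although Tyrobp encodes the signalling partner of TREM2, Cst7, Clec7a and Cd68 are genes of the plaque response and P2ry13 encodes a purine receptor of resting microglia. The windows of these 7 genes hold 2 to 10 CCGG motifs each, against 8 to 253 in the covered genes, and a median of 8.17 CpGs per kb against 12.3. Coverage was thin in Siglech with 3 sites, in Fcrls with 4, in Hpgds with 5 and in Trem2 with 7 sites in rTg4510 and 10 in J20 mice. Most sites lay in Cx3cr1 (426 and 424), Runx1 (345 and 349), Sall1 (248 and 263), Irf8 (140 and 137) and Cd9 (110 in both). Of the 26 covered genes, 17 in rTg4510 and 16 in J20 mice had at least 1 site within 2 kb of the annotated start, while 9 and 10 had sites farther into the gene only.

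The sites of Cx3cr1, which encodes the fractalkine receptor, need a separate remark. GENCODE vM21 places this gene at chr9:119901616-120069879, while RefSeq places it at chr9:120048683-120068296. Of the 426 sites in rTg4510 mice, 314 lie in other genes such as Csrnp1 and Wdr48. Within the RefSeq bounds 17 sites remain in each model, with mean levels of 93.6% in rTg4510 and 91.5% in J20 mice.

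The stretches below hold CpGs that were called in a test across all sites, and in the second Runx1 stretch 1 that was not called, and are printed on the + strand of GRCm38 with those CpGs in capitals. They leave out 3 of the 6 called sites of the first Axl exon and the single called sites upstream of Itgam and Sall1 and in the Cx3cr1 window. They are shown because their setting differs, with 13 CpGs in the 89 bases upstream of Tgfbr1 and 9 in the 63 bases of the Sall1 intron, but 2 in each intronic stretch of Axl and Runx1.
Tmem119_intron, chr5:113795838-113795942: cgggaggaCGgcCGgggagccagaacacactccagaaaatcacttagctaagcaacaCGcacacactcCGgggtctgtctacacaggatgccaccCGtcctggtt
Tgfbr1_upstream, chr4:47353110-47353198: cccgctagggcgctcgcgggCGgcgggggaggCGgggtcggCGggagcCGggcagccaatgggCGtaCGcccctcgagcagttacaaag
Sall1_intron, chr8:89042840-89042902: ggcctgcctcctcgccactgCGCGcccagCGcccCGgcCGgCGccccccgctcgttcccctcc
Axl_intron, chr7:25787744-25787805: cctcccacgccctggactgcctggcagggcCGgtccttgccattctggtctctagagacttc
Axl_first_exon, chr7:25788653-25788676: tcCGcagctagcCGccttccCGgc
Runx1_intron, chr16:92614752-92614813: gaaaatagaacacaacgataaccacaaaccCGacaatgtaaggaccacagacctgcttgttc
Runx1_intron_2, chr16:92753487-92753546: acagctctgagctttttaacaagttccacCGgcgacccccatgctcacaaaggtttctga

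At the oldest age, a small majority of the member sites had a lower mean in TG than in WT mice in each model. In rTg4510 mice at 8 months this held for 52.6% of the 1843 sites, beside 46.9% of all sites, and the median difference was −0.08 points for members and +0.09 for all sites. With Cx3cr1 cut to its RefSeq bounds the share was 50.7% of 1434 member sites, with a median of −0.02 points. Most sites in CpG-dense promoters are close to 0% in every mouse, so the same was counted for the 949 member sites with a mean of at least 10%. There 57.01% were lower in TG mice, beside 48.0% of all such sites, and the medians were −0.96 and +0.23 points. In J20 mice at 12 months the share was 51.4% of 1866 sites, beside 50.4% of all sites, and for the 883 sites with a mean of at least 10% it was 54.4% beside 51.0%, with medians of −0.74 and −0.14 points. The RefSeq bounds gave 52.6% of 1459 J20 member sites of any mean. At a mean of at least 10% they gave 58.3% of 725 rTg4510 and 55.8% of 677 J20 member sites, with medians of −1.19 and −0.93 points.

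Among rTg4510 member sites with a mean of at least 10%, 37.4% were lower in TG mice at 2 months, 52.5% at 4, 56.3% at 6 and 57.01% at 8 months, while over all sites the shares were 38.6%, 45.6%, 45.5% and 48.0%. The low share at 2 months rested on the pair of WT mice with low mean levels. Without them, with 5 WT and 8 TG mice, 58.0% of these member sites and 52.2% of all such sites were lower in TG mice at 2 months, so the shares did not rise from the youngest to the oldest age. With the same minimum of 10% the J20 member shares were 46.1%, 34.1%, 53.3% and 54.4% at 6, 8, 10 and 12 months, and those of all sites 45.6%, 34.0%, 49.5% and 51.0%. Over member sites of any mean the rTg4510 share was 42.7% at 2 months (56.5% without the pair of WT mice), 52.8% at 4, 51.3% at 6 and 52.6% at 8 months. Over all sites it was 43.7% at 2 months (53.4% without that pair), 47.5% at 4, 48.5% at 6 and 46.9% at 8 months. The J20 shares were 48.1%, 39.1%, 50.1% and 51.4% of member sites, and 47.1%, 40.7%, 49.6% and 50.4% of all sites.

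Within 2 kb of gene starts 43.7% of the 515 rTg4510 member sites of any mean were lower in TG mice at 8 months, beside 46.4% of all sites within 2 kb of a protein-coding gene start. Farther from the start it was 56.0% of 1328 member sites, beside 47.3% of all such sites. In J20 mice at 12 months the order was the other way round, with 54.0% of 537 member sites near the start beside 50.2%, and 50.4% of 1329 farther away beside 50.5%. With the mean difference of the ages of 6 and 8 months, the rTg4510 share was 47.0% beside 46.8% of all sites. Near gene starts the member shares were higher at a mean of at least 10%. In rTg4510 mice 54.1% of 74 such member sites were lower, beside 48.6% of all such sites, with medians of −0.54 and +0.20 points. The J20 share was 65.2% of 66 member sites, beside 51.7%, with medians of −2.86 and −0.21 points.

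**Figure D1:**
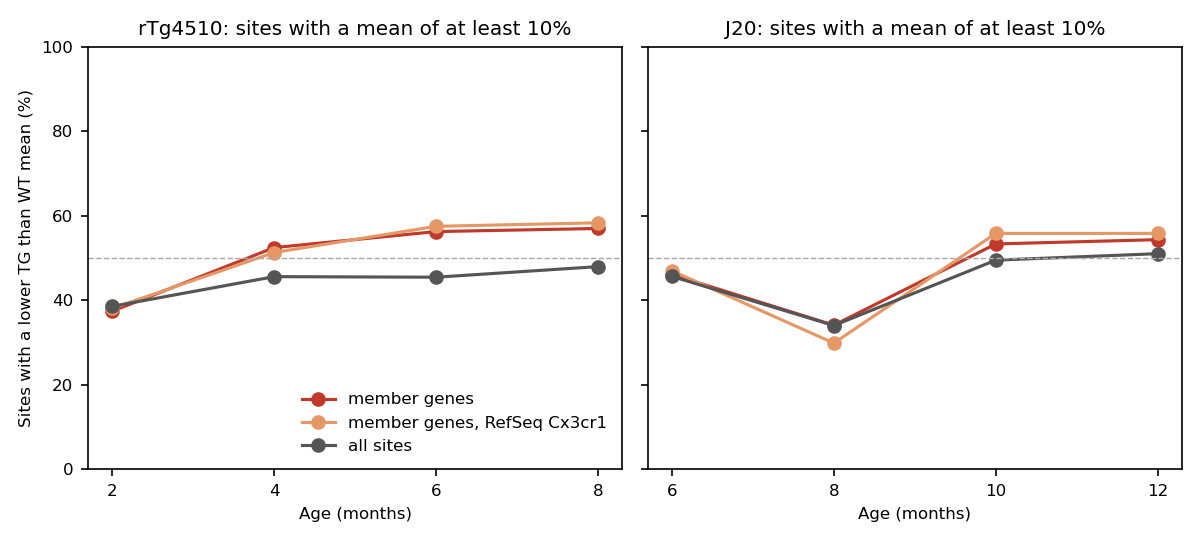
Percentage of CpG sites whose mean DNAm level was lower in TG than in WT mice (y axis) against age in months (x axis), for member sites, member sites with Cx3cr1 cut to its RefSeq bounds, and all sites, each with a mean of at least 10%, in rTg4510 (left) and J20 mice (right). Member sites lie above all sites at 8 months (57.01% against 48.0%) and at 12 months (54.4% against 51.0%), and close to them at the youngest age (37.4% against 38.6% and 46.1% against 45.6%). In a count not drawn here, without the pair of rTg4510 WT mice with low mean levels, the 2-month shares were 58.0% and 52.2%.

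Averaged over the 491 member sites that had a mean of at least 10% and a value in every rTg4510 mouse, WT mice at 8 months ranged from 67.5% to 73.5% with a median of 71.3%, and TG mice from 67.2% to 71.5% with a median of 69.7%. The means were 71.0% ± 2.06 (SD, n = 8) and 69.6% ± 1.56 (SD, n = 7), and their distance was within 1 SD of either group. Over all sites of this kind TG mice were the higher group, with 66.8% ± 1.11 (SD, n = 7) against 66.1% ± 1.65 (SD, n = 8). In J20 mice at 12 months the 447 member sites averaged 66.6% ± 3.02 (SD, n = 8) for WT against 66.0% ± 2.33 (SD, n = 8) for TG. The groups overlapped in both models.

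Single sites were tested by beta regression over all mice of a model, with p-values adjusted over all sites by the Benjamini-Hochberg method and sites called at an FDR below 0.05. The tests asked for a genotype-by-age interaction, for a genotype effect at the oldest age and for a genotype effect over all ages. For the interaction, 0 member sites were called lower and 2 higher in rTg4510 TG mice, beside a background of 0.0124% of all sites lower and 0.0137% higher, where lower means that the level fell with age in TG relative to WT mice. In J20 mice 1 member site was called lower and 0 higher, beside 0.0796% and 0.03% of all sites. At the oldest age 5 member sites were called lower and 6 higher in rTg4510 TG mice, beside 0.139% and 0.22% of all sites, and 0 lower and 6 higher in J20 TG mice, beside 0.165% and 0.0848%. Over all ages 1 was called lower and 2 higher in rTg4510 mice, beside 0.116% and 0.21%, and 0 lower and 6 higher in J20 mice, beside 0.0915% and 0.117%. With the mean level of each mouse as a covariate the rTg4510 balance turned, to 3 lower and 1 higher beside 0.223% and 0.152%.

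Neighbouring sites share reads and smoothing, so these calls come from few places. The 11 calls at 8 months fell in 3 runs of sites at most 100 bp apart, and the 6 calls in J20 mice fell in 1 run for each of the 2 genotype tests. At an unadjusted p below 0.05, 12.3% of rTg4510 member sites passed the interaction test beside 9.02% of all sites, 10.0% passed at the oldest age beside 10.5%, and 9.71% over all ages beside 10.2%. The J20 shares were 9.32% beside 9.73%, 9.70% beside 9.85% and 10.1% beside 9.49%. Under limma, and under beta regression with all levels squeezed away from 0% and 100%, 0 member sites were called in each test and model. An unadjusted limma p below 0.05 was found at 91 to 107 of 1843 rTg4510 and 65 to 105 of 1866 J20 member sites. The share of all sites at that p was not counted, so these counts have no background.

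Tmem119, a transmembrane protein found in microglia but not in infiltrating macrophages, held the only member sites called lower at the oldest age. Its 5 called sites lie in an intron 4583 to 4670 bp from the start, in the stretch printed above, within a run of 30 sites at chr5:113795203-113795934. At chr5:113795850 the level in rTg4510 WT mice at 8 months was 75.2% at the lowest, 94.5% at the median and 100.0% at the highest, and in TG mice 60.2%, 85.2% and 93.2%. The groups overlapped, and the mean was 10.5 points lower in TG mice, with an FDR of 0.0412 at the oldest age. The smallest FDR of the run, 0.0147, was at chr5:113795906, where the difference was −5.92 points.

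The order of the groups at these sites was not the same at every age. At chr5:113795933 TG mice stood above WT mice at 2 months, with 89.5% ± 8.78 (SD, n = 8) against 73.4% ± 24.8 (SD, n = 7). Without the pair of WT mice with low mean levels, the WT mean there was 79.4% ± 19.7 (SD, n = 5), and the gene mean of Tmem119 was 79.1% in these WT mice, above the 76.7% of TG mice. At 6 months they stood at 60.5% ± 20.5 (SD, n = 7) against 90.2% ± 11.2 (SD, n = 8), and at 8 months at 83.1% ± 10.4 (SD, n = 7) against 89.8% ± 9.10 (SD, n = 8). The interaction was not called at any of the 5 sites, with FDRs from 0.0747 to 0.148. Among the mice of 8 months alone, a two-sided exact permutation test gave p-values from 0.0577 to 0.201 for the 5 sites. A beta regression of those mice alone called none of the 5, with FDRs from 0.144 to 0.298. Of the 30 sites of the run, 25 had a lower mean in TG mice, with differences from −14.4 to +2.65 points. The mean of the run was 87.9% ± 2.68 (SD, n = 8) for WT against 83.5% ± 5.63 (SD, n = 7) for TG.

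The Tmem119 calls at chr5:113795846, chr5:113795850 and chr5:113795895 were lost on leaving out any 1 of 29, 11 and 13 mice. The largest shift came from WT replicate 2 at 8 months, whose level was 100% at each of them and without which the p-values of these fits over all mice rose to between 0.00311 and 0.00581. The calls at chr5:113795906 and chr5:113795933 were kept whichever mouse was left out. At both of these sites 2 of 8 WT and 0 of 7 TG mice had a level of exactly 100% at 8 months. Leaving out 1 mouse therefore never removed all such WT levels. With squeezed levels the FDRs of the 5 Tmem119 sites were 0.371 to 0.455. With a logit link the calls at chr5:113795846, chr5:113795850 and chr5:113795895 were lost, with FDRs of 0.0566 to 0.0629. A block by the letter of the sample code also ended the call at chr5:113795895 (FDR of 0.0510). None of the 5 was called in J20 mice. At chr5:113795850 the J20 levels at 12 months were 78.9% ± 6.61 (SD, n = 8) for WT against 85.7% ± 9.30 (SD, n = 8) for TG mice, the opposite order to that of rTg4510 mice. Whether the models differ was not tested.

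**Figure D2:**
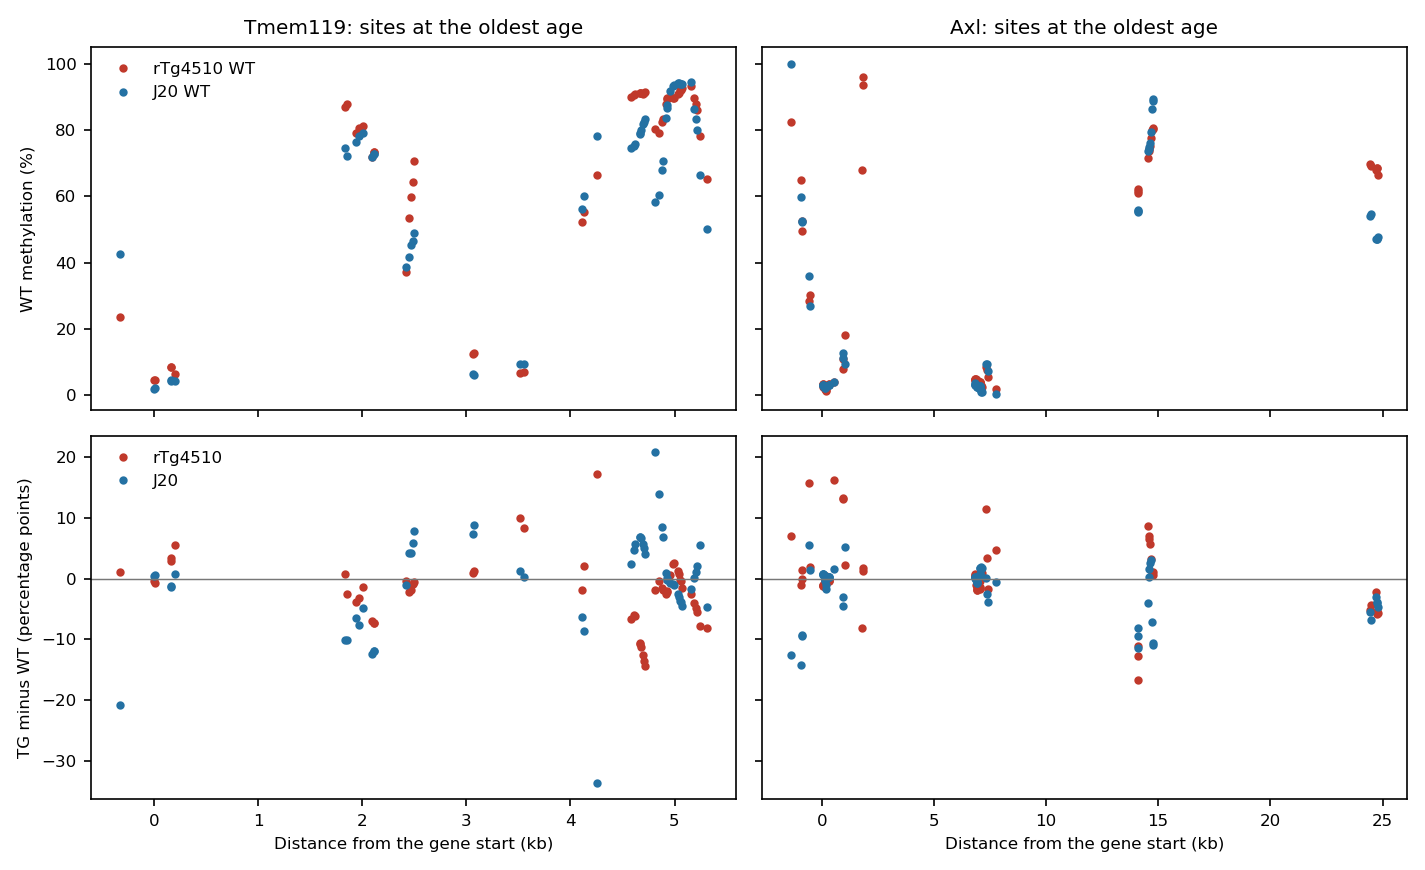
CpG sites of Tmem119 (left) and Axl (right) against the distance from the gene start in kb (x axis), at 8 months in rTg4510 and 12 months in J20 mice. The upper panels give the mean DNAm level of WT mice in percent and the lower panels the TG mean minus the WT mean in percentage points, with 1 point per site. The called Tmem119 sites, 4583 to 4670 bp from the start, lie below 0 in rTg4510 mice, by 5.92 to 10.7 points.

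Olfml3 encodes a secreted glycoprotein that microglia make at rest. Its gene mean, over 4 sites, had the largest negative difference of the 21 member genes tested in rTg4510 mice. WT mice at 8 months had a gene mean of 61.2% at the lowest, 69.9% at the median and 74.5% at the highest, and TG mice 45.2%, 59.3% and 62.9%. The groups overlapped only between 61.2% and 62.9%, and the difference in means was −12.3 points (two-sided exact permutation test over 6435 splits, p = 0.00280). In the fit over all mice the difference at 8 months was not called, with an FDR of 0.451, and the interaction had an FDR of 0.912. When the mice of 8 months were fitted alone, the FDR over all genes was 0.0142, and 124 of 16653 genes (0.745%) were called in that fit, 30 of them lower.

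Most of that difference came from 1 site of an untranslated exon, chr3:103731842, 6159 bp from the start, which was chosen after its values were seen. At 8 months WT mice had levels of 50.0% at the lowest, 81.7% at the median and 100.0% at the highest, and TG mice 0%, 45.8% and 55.0%. The groups overlapped only between 50.0% and 55.0%, and the mean was 45.8 points lower in TG mice (two-sided exact permutation test, p = 0.000777). The spread was wide at the younger ages, as in the WT mice of 6 months, which stood at 53.2% ± 35.4 (SD, n = 8) against 46.3% ± 28.3 (SD, n = 7) in TG mice. Over all mice the site was not called, with an FDR of 0.617 at the oldest age and 0.847 for the interaction. Its neighbour chr3:103731922 was 15.9 points lower in TG mice. In J20 mice at 12 months chr3:103731842 stood at 50.6% ± 27.9 (SD, n = 8) for WT against 47.3% ± 22.7 (SD, n = 8) for TG.

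Tgfbr1 encodes the type I receptor for TGF-β, the signal that keeps microglia in their resting state. Its CpG-dense upstream stretch was close to unmethylated in every mouse, and 6 of its sites, at chr4:47353130-47353177 and no more than 92 bp from the start, carried calls toward higher levels in older rTg4510 TG mice. At chr4:47353142 the level at 8 months was 0% at the lowest, 0.870% at the median and 4.52% at the highest in WT mice, and 0.649%, 2.59% and 6.64% in TG mice. The groups overlapped over most of their range, the difference was +1.43 points and the FDR at the oldest age 0.0382, while the exact permutation p among the mice of 8 months was 0.170. In a fit of those mice alone the 4 called sites from chr4:47353142 to chr4:47353173 had FDRs of 0.164 to 0.186 and were not called. At each called site 2 of 8 WT mice and 0 of 7 TG mice had a level of exactly 0% at 8 months. At 2 months the TG mean was below the WT mean at all 6 sites, the opposite order to that at 8 months. At chr4:47353130 the means at 2 months were 1.89% for WT against 0.914% for TG mice. Without the pair of WT mice with low mean levels, the WT mean there was 2.25% ± 1.41 (SD, n = 5). The difference at 2 months was not tested. The interaction call at chr4:47353130 had an FDR of 0.0474 and was lost without any 1 of 28 mice and without the pair of WT mice with low mean levels, where its FDR was 0.0542. The 5 calls at the oldest age were lost without any 1 of 5 to 27 mice. A block by the letter of the sample code ended the calls from chr4:47353130 to chr4:47353173, with FDRs of 0.0550 to 0.123. A logit link ended those at chr4:47353130, chr4:47353142 and chr4:47353173, with FDRs of 0.0507 to 0.0564. With squeezed levels the FDR of chr4:47353142 was 0.706. None of these sites was called in J20 mice, in which chr4:47353142 stood at 1.79% ± 1.25 (SD, n = 8) for WT against 1.52% ± 1.30 (SD, n = 8) for TG at 12 months.

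The remaining resting genes gave no called site outside the Cx3cr1 window. P2ry12, the ADP receptor by which resting microglia sense injury, had a gene mean over 6 sites of 64.5% ± 18.6 (SD, n = 8) for WT against 54.8% ± 8.75 (SD, n = 7) for TG among rTg4510 mice at 8 months. Its 18 sites disagreed in direction, with 12 of them lower in TG mice and differences from −15.3 to +25.6 points within introns. In J20 mice at 12 months its gene mean over 7 sites was 51.7% ± 17.3 (SD, n = 8) for WT against 52.3% ± 10.6 (SD, n = 8) for TG. Csf1r, the receptor on which microglial survival depends, had gene means over 13 sites of 78.0% ± 4.33 (SD, n = 8) for WT against 81.2% ± 4.30 (SD, n = 7) for TG among rTg4510 mice. In J20 mice, over 14 sites, they were 72.9% ± 10.1 (SD, n = 8) and 68.5% ± 9.42 (SD, n = 8). Fcrls, an Fc receptor-like gene of resting microglia, had 4 complete sites in J20 mice and a difference of −0.28 points. Hpgds, a prostaglandin D synthase, and Siglech, a sialic acid-binding lectin, had no site with a value in every mouse and were not tested as genes.

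Within the 17 sites that RefSeq places in Cx3cr1, the median difference at the oldest age was −1.89 points in rTg4510 and −1.52 points in J20 mice. The single call in the longer GENCODE window, at chr9:119982921, lies within the bounds of Csrnp1. It was lower in rTg4510 TG mice over all ages, with an FDR of 0.0117. There 10 of 30 TG mice and 2 of 31 WT mice had a level of exactly 0%. The site chr9:119921821, in Wdr48, had a difference of +17.6 points at 8 months, with levels from 46.3% to 82.0% in WT and from 76.1% to 93.6% in TG mice (two-sided exact permutation test, p = 0.00917), and was not called (FDR of 0.0885 at the oldest age).

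Among the transcription factors, Sall1, which keeps microglia distinct from other macrophages, gave the calls over all ages in J20 mice. Its 6 called sites lie side by side in an intron 1281 to 1302 bp from the start, at chr8:89042860-89042881, in the CpG-dense stretch printed above. At chr8:89042862 WT mice at 12 months ranged from 0.216% to 2.55% with a median of 0.585%, and TG mice from 0.776% to 6.92% with a median of 2.69%. The groups overlapped, but the mean was 2.32 points higher in TG mice (two-sided exact permutation test over 12870 splits, p = 0.00793). At all 6 sites TG replicate 8 was the highest TG mouse at 12 months, with 6.74% to 7.48%. The 6 sites belong to a run of 109 sites at chr8:89041854-89043002, of which 58 were lower in TG mice at 12 months, with differences from −3.51 to +2.32 points. The mean of the run was 1.66% ± 0.827 (SD, n = 8) for WT against 1.57% ± 0.683 (SD, n = 8) for TG. At chr8:89042862 both groups stood, at 6 months, at 1.496% ± 1.11 (SD, n = 8) for WT and 1.52% ± 1.13 (SD, n = 8) for TG mice.

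The FDRs of the 6 Sall1 sites over all ages were 0.00498 to 0.0410, and 5 of the calls were kept whichever mouse was left out. Their fits counted 2 to 6 of 32 WT mice and 0 of 31 TG mice at exactly 0%, and with squeezed levels their FDRs were 0.679 to 0.831. In rTg4510 mice the same sites were not called. A separate site 1287 bp upstream of Sall1, chr8:89045449, was called higher in rTg4510 TG mice over all ages, with an FDR of 0.0418. That call was lost without the pair of WT mice with low mean levels (FDR of 0.135) and with the mean level of each mouse as a covariate (0.331). Averaged over its 216 and 242 complete sites, Sall1 had gene means of 2.92% in rTg4510 and 5.02% in J20 mice, and no gene mean was called.

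Runx1, a transcription factor of blood and microglial development, held the only member site at which the interaction was called toward a level falling with age in TG relative to WT mice. At chr16:92614782, in an intron, J20 TG mice had a mean of 93.6% ± 2.48 (SD, n = 8) at 6 months, and those of 12 months averaged 89.3% ± 5.75 (SD, n = 8). The corresponding WT means were 86.1% ± 4.47 (SD, n = 8) and 94.5% ± 3.70 (SD, n = 8). The order of the groups was reversed between the youngest and the oldest age, and the interaction had an FDR of 0.0213. Whichever mouse was left out, its likelihood ratio p stayed below 5.48e-05, the largest p called in the full fit. It was largest, at 3.64e-05, without WT replicate 7 at 12 months, whose level was 100%. With squeezed levels the interaction FDR was 0.864. At 12 months WT mice ranged from 90.7% to 100.0% and TG mice from 79.2% to 96.0%, a difference of −5.18 points (two-sided exact permutation test, p = 0.0491). All 6 sites of that run were lower in TG mice, by 0.90 to 7.22 points. In rTg4510 mice the site stood at 92.8% ± 2.06 (SD, n = 8) for WT against 92.7% ± 3.03 (SD, n = 7) for TG at 8 months.

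Other Runx1 sites came near the threshold in both directions. At chr16:92753516 J20 WT mice at 12 months ranged from 40.0% to 100.0% with a median of 75.2% and TG mice from 94.7% to 100.0% with a median of 100.0%, a difference of +24.3 points (two-sided exact permutation test, p = 0.00140). The FDR was 0.0518 for the interaction and 0.0563 at the oldest age. The other site of its run of 2 sites differed by −4.52 points. At chr16:92747855 the difference was −6.79 points (exact permutation p = 0.0110) with an interaction FDR of 0.0762. In rTg4510 mice chr16:92817642, in a noncoding exon, ranged from 68.6% to 87.7% in WT and from 52.2% to 72.2% in TG mice at 8 months. The difference was −14.1 points (exact permutation p = 0.00109). In the fits over all mice its FDR was 0.852 at the oldest age and 0.0853 over all ages. The same site in J20 mice at 12 months stood at 79.0% ± 10.5 (SD, n = 8) for WT against 63.7% ± 19.1 (SD, n = 8) for TG, and at 8 months the J20 order was the opposite, with 64.6% ± 17.3 (SD, n = 8) and 77.0% ± 11.5 (SD, n = 7).

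Spi1, the master regulator of myeloid cells, and Irf8, its partner, had no called site. The gene mean of Spi1 at the oldest age was 56.3% ± 4.30 (SD, n = 8) for WT against 53.4% ± 4.41 (SD, n = 7) for TG among rTg4510 mice, and 41.8% ± 5.68 (SD, n = 8) and 43.3% ± 5.90 (SD, n = 8) in J20 mice. That of Irf8 was 36.5% ± 2.32 (SD, n = 8) and 35.8% ± 1.47 (SD, n = 7) in rTg4510 mice, and 31.4% ± 2.96 (SD, n = 8) and 32.2% ± 2.23 (SD, n = 8) in J20 mice. These differences were smaller than the spread between mice.

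Of the TREM2 axis and its related immune receptors, Trem2 itself, which senses lipids on plaques and dying cells, was measured thinly, with 3 complete sites in J20 and 2 in rTg4510 mice. In J20 mice its gene mean at 12 months ranged from 88.1% to 98.2% with a median of 89.8% in WT and from 80.8% to 100.0% with a median of 93.5% in TG mice. The difference was +0.89 points (exact permutation p = 0.747), and neither the interaction (FDR of 0.524) nor the effect at the oldest age (0.844) was called. Inpp5d, a lipid phosphatase that dampens this signal, had a difference of −5.28 points over 23 sites in rTg4510 mice (exact permutation p = 0.0538) and of −2.12 points over 17 sites in J20 mice (p = 0.686 by the same exact test). Laptm5, a lysosomal membrane protein, stood at 78.0% ± 4.70 (SD, n = 8) for WT against 83.9% ± 6.60 (SD, n = 7) for TG among rTg4510 mice at 8 months, the opposite direction (exact permutation p = 0.0695).

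Itgam, an integrin chain used to label microglia, had 1 call, at chr7:128060642, which lies 1998 bp upstream of the start and was higher in rTg4510 TG mice over all ages with an FDR of 0.0192. Its levels spread widely. At 6 months WT mice ranged from 0% to 69.2% and TG mice from 6.45% to 100.0%, and at 8 months the difference was +3.22 points with an exact permutation p of 0.780. In all, 7 of 30 WT mice with a value had a level of exactly 0%, and 3 of 29 TG mice a level of exactly 100%. With squeezed levels the FDR over all ages was 0.477, and the site was not called. Ly86, a partner of a toll-like receptor homologue, had gene means over 3 sites of 32.6% ± 5.42 (SD, n = 8) for WT against 25.4% ± 10.3 (SD, n = 8) for TG among J20 mice at 12 months (interaction FDR of 0.621), and of 39.2% ± 3.36 (SD, n = 8) and 42.4% ± 8.83 (SD, n = 7) in rTg4510 mice at 8 months.

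The complement genes C1qa, C1qb and C1qc encode the chains of C1q, which starts the classical cascade and tags synapses for removal by microglia. Of their 48 sites, 66.7% had a lower mean in TG mice at 8 months in rTg4510 mice, beside 46.9% of all sites, with a median difference of −3.25 points. In J20 mice at 12 months it was 43.8%, beside 50.4%, with a median of +0.47 points. The rTg4510 shares of the other roles were 47.3% for transcription factors, 51.7% for the TREM2 axis and immune receptors, 56.3% for resting genes and 56.9% for plaque response genes. In the same order the J20 shares were 52.9%, 54.9%, 49.3% and 52.6%. C1qa had the smallest interaction p of any member gene in rTg4510 mice (0.00726, FDR of 0.912). That p was 0.0791 without the pair of WT mice with low mean levels, whose C1qa means at 2 months were 23.4% and 25.8% against 42.2% to 46.5% in the other 5 WT mice. WT mice at 8 months had a gene mean of 39.0% at the lowest, 49.0% at the median and 55.8% at the highest, and TG mice 37.3%, 39.9% and 52.6%. The difference was −5.69 points with overlapping groups (exact permutation p = 0.0709).

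The lower C1qa levels were not spread evenly over the gene, and the stretches compared here were chosen after their values were seen. The 10 sites from 1091 to 1642 bp after the start, which WT mice held at 76.7% to 92.4%, had differences of −10.6 to −18.8 points, while the 12 sites farther into the gene differed by −3.32 to +7.76 points. None of the 22 sites was called at the oldest age, with FDRs from 0.149 to 0.998. At the same 10 sites in J20 mice differences ran from −6.95 to +10.5 points, and the gene mean of C1qa was 32.4% ± 2.33 (SD, n = 8) for WT against 35.0% ± 3.68 (SD, n = 8) for TG. C1qc stood at 78.1% ± 6.61 (SD, n = 8) and 76.5% ± 2.75 (SD, n = 7) in rTg4510 mice, and C1qb, with 10 sites of which at most 2 had a value in every mouse, was not tested as a gene. Of these 10 C1qb sites, 7 were lower in rTg4510 TG mice, with a median difference of −2.90 points, and 8 in J20 TG mice, with a median of −14.6 points.

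Among the plaque response genes, Axl, a receptor kinase with which microglia recognise apoptotic cells and plaques, gave the largest called difference. At chr7:25787774, in an intron 931 bp from the start, rTg4510 WT mice at 8 months had a level of 0% at the lowest, 5.36% at the median and 18.97% at the highest, and TG mice 13.5%, 23.8% and 28.2%. The mean was 13.3 points higher in TG mice and the groups overlapped only between 13.5% and 18.97% (two-sided exact permutation test, p = 0.00451). The FDR was 0.00471 at the oldest age and 0.0444 for the interaction. At 2 months the groups had similar means, with 13.3% ± 9.06 (SD, n = 7) for WT against 12.3% ± 9.08 (SD, n = 8) for TG. The call at the oldest age was kept whichever mouse was left out, the interaction call was lost without any 1 of 9 mice, and with squeezed levels the FDR at the oldest age was 0.119. At 8 months 2 of 8 WT and 0 of 7 TG rTg4510 mice had a level of exactly 0% at this site. In J20 mice the order was the opposite, with 11.2% ± 5.45 (SD, n = 8) for WT against 6.70% ± 6.88 (SD, n = 8) for TG at 12 months, and the site was not called.

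The calls of J20 mice at 12 months were also in Axl, at 6 sites of its untranslated first exon, 32 to 91 bp from the start at chr7:25788614-25788673. Differences there were 0.59 to 0.82 points. At chr7:25788665 WT mice ranged from 0% to 7.96% with a median of 2.50% and TG mice from 2.18% to 10.4% with a median of 3.07%, and the exact permutation p-values of the 6 sites were 0.566 to 0.657. TG replicate 8, also the highest TG mouse at the called Sall1 sites, was the highest of its group at all 6 sites, and 2 of 8 WT and 0 of 8 TG mice were at exactly 0%. The calls at chr7:25788614, chr7:25788626 and chr7:25788637 were lost without WT replicate 4 or without WT replicate 6 at 12 months, and those at chr7:25788614 and chr7:25788637 also without WT replicate 8 at 10 months.

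**Figure D3:**
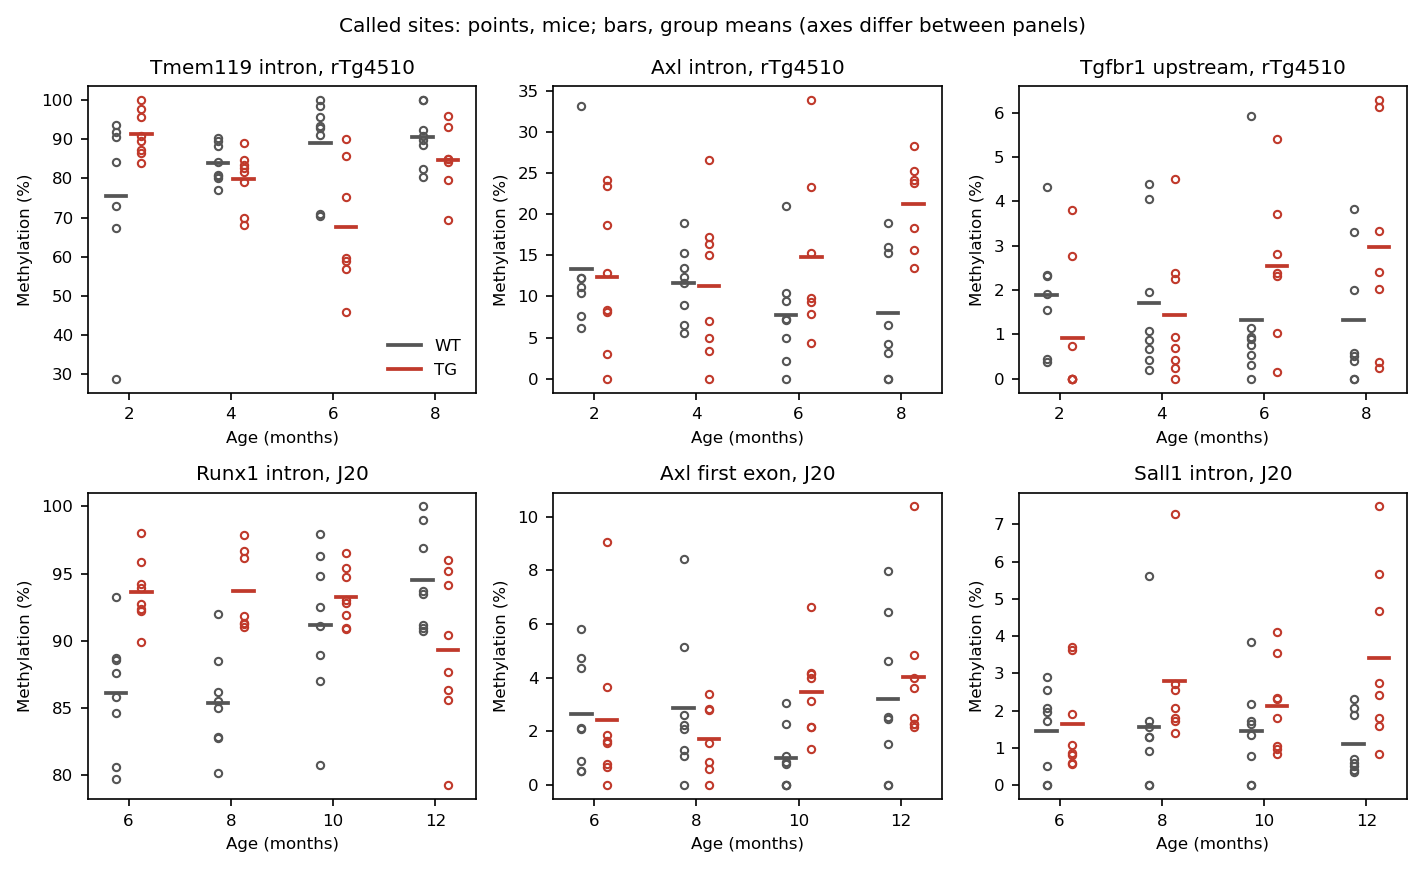
DNAm level in percent (y axis, scaled for each panel) against age in months (x axis) at the called site of smallest p in each of 6 genes and models, with 1 point per mouse and a bar for the mean of 7 or 8 mice in WT and TG groups. TG mice lie above WT mice at 8 months at the Axl intron site of rTg4510 mice (13.5% to 28.2% against 0% to 18.97%), and the groups overlap in all panels.

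The other plaque response genes had no called site. Itgax, the integrin chain that marks plaque-associated microglia, had 5 sites in rTg4510 mice with gene means of 91.4% ± 5.63 (SD, n = 8) for WT against 93.5% ± 6.39 (SD, n = 7) for TG at 8 months, and the smallest p of any member gene at the oldest age (0.00143, FDR of 0.297), toward higher levels. The exact permutation p for the same mice was 0.519. In J20 mice Itgax stood at 89.3% ± 8.03 (SD, n = 8) for WT against 87.8% ± 4.098 (SD, n = 8) for TG. Lpl, which encodes lipoprotein lipase, and Ctsd, which encodes cathepsin D, were covered at their CpG-dense starts and were close to unmethylated, with gene means of 1.27% to 1.68% and 0.968% to 1.32% and differences of at most 0.21 points either way. Cd9, a tetraspanin, had gene means of 19.3% ± 1.83 (SD, n = 8) and 19.4% ± 2.03 (SD, n = 7) in rTg4510 mice at 8 months. In J20 mice it had an unadjusted p of 0.0428 over all ages (FDR of 0.450), toward higher levels.

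When the sites of a gene were averaged in each mouse, 21 member genes could be tested in rTg4510 and 23 in J20 mice, and beta regression called 0 of them in each of the 3 tests in both models. Over all genes the background was 0.0% lower and 0.0% higher for the interaction in both models. It was 0.0% lower and 0.048% higher at the oldest age, and 0.042% and 0.594% over all ages, in rTg4510 mice, and 0.0% and 0.0%, then 0.018% and 0.0958%, in J20 mice. At an unadjusted p below 0.05, the interaction, oldest-age and all-age tests passed 3, 3 and 1 rTg4510 genes (14.3%, 14.3% and 4.76% beside 5.07%, 7.03% and 12.4% of all genes) and 2, 1 and 1 J20 genes (8.70%, 4.35% and 4.35% beside 7.66%, 5.84% and 10.6%). Without the pair of WT mice with low mean levels the rTg4510 counts were 2, 3 and 2. With limma, 0 member genes were called, and 2, 3 and 0 rTg4510 and 0, 0 and 0 J20 member genes had an unadjusted p below 0.05. The share of all genes at that limma p is not given here. At the oldest age 11 of the 21 genes in rTg4510 mice had a lower mean in TG mice, beside 40.1% of all 16653 genes, with a median difference of −0.11 points beside +0.16. In J20 mice 11 of 23 did, beside 52.4% of all 16708 genes, with medians of +0.03 and −0.03 points.

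The genes with the most sites had small differences in gene mean. In rTg4510 mice at 8 months the gene mean of Runx1 over 268 sites differed by −0.11 points, that of Cx3cr1 over 299 sites of its GENCODE window by −0.42 points and that of Sall1 over 216 sites by +0.15 points. In J20 mice at 12 months the differences were −0.71, +0.26 and −0.22 points. Tmem119 differed by −3.18 points in rTg4510 (exact permutation p = 0.115) and by +0.19 points in J20 mice, over 39 and 40 sites. Olfml3 in J20 mice, over 5 sites that leave out chr3:103731842 because some mice have no value there, was 6.36 points higher in TG mice (exact permutation p = 0.187). Itgam differed by +0.57 points in rTg4510 and +0.85 points in J20 mice, and Axl by +0.90 and −0.81 points.

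**Figure D4:**
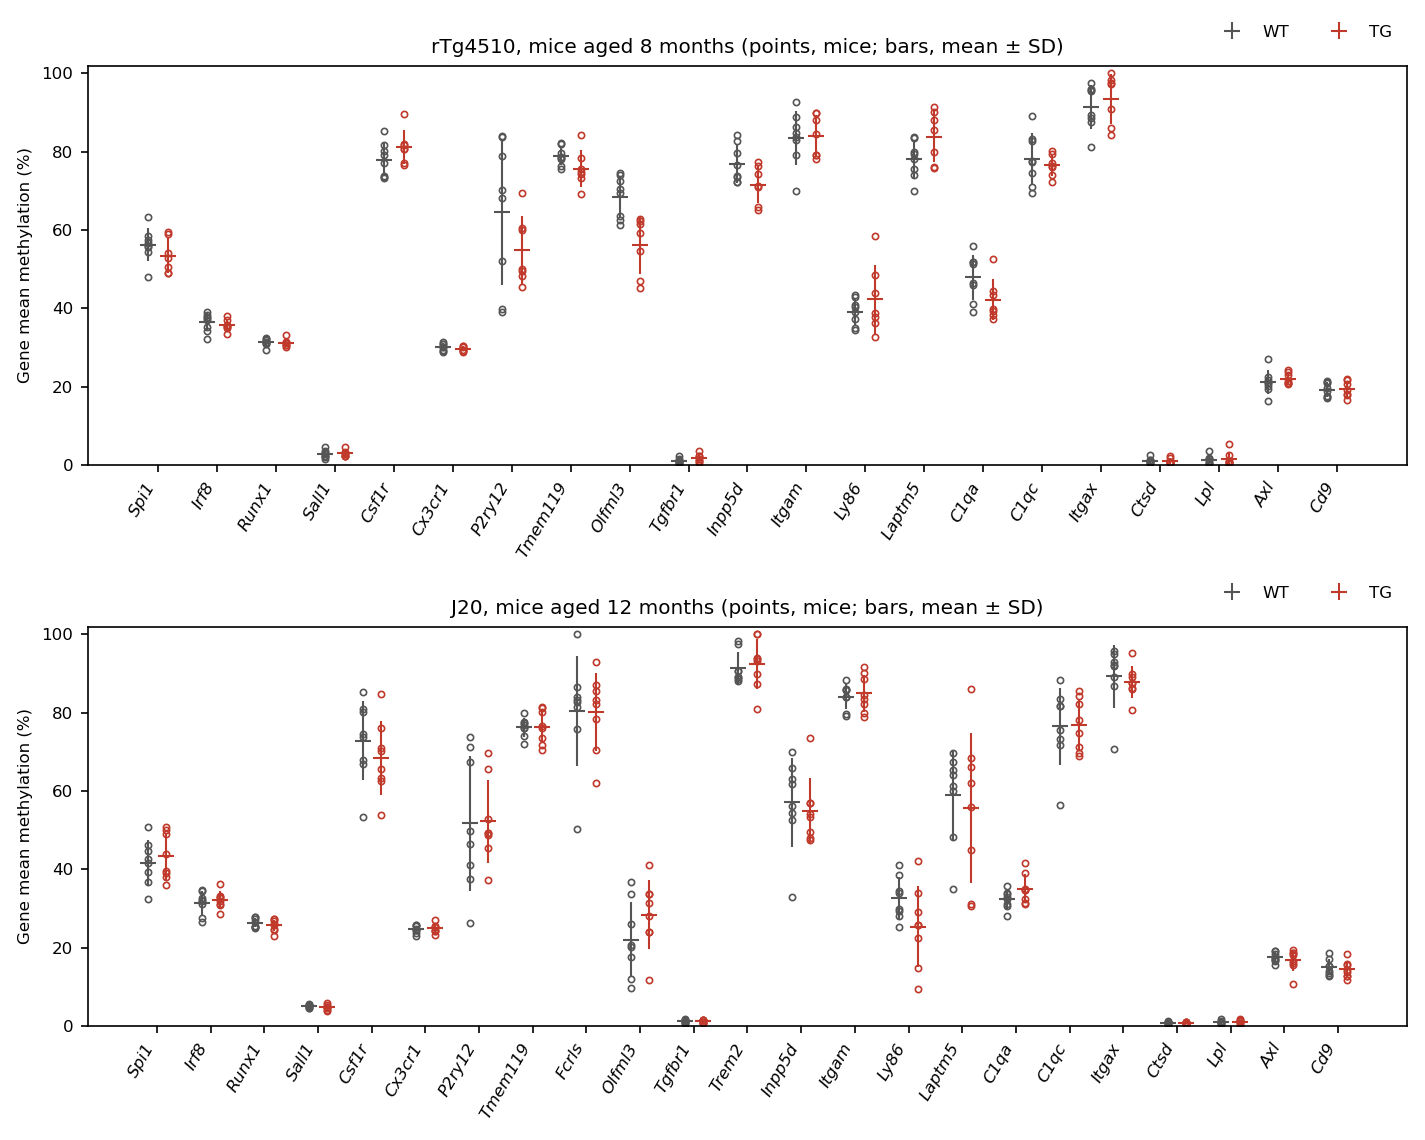
Gene mean DNAm level in percent (y axis) of each member gene with at least 3 sites that have a value in every mouse (x axis, ordered by role), at 8 months in rTg4510 mice (upper panel) and 12 months in J20 mice (lower panel). Points are mice, and bars the mean and SD of 7 or 8 mice. WT and TG points overlap for every gene, and Olfml3 shows the widest gap between means (68.5% for WT against 56.2% for TG in rTg4510 mice).

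Other genes of the same pathways, such as the kinase Syk and the phospholipase Plcg2 that act below TREM2 and the ligands Csf1 and Il34, were tested in the same way. Of 36 such genes, 34 were tested in rTg4510 and 33 in J20 mice, and 0 were called in any of the 3 tests. At the oldest age 21 of the 34 had a lower mean in TG rTg4510 mice and 19 of the 33 in TG J20 mice, with median differences of −0.17 and −0.22 points. No gene of the marker lists of other cell types was called either, in any of the 3 tests. At an unadjusted p below 0.05 over all ages, 3 of 8 neuronal genes passed in rTg4510 mice, beside 12.4% of all genes. In J20 mice 4 of 7 oligodendrocyte genes passed, beside 10.6%, and all of these genes were higher in TG mice. For the other marker lists, models and tests at most 1 gene passed. At the oldest age in rTg4510 mice 0 of 8 neuronal, 1 of 7 astrocyte, 2 of 7 oligodendrocyte, 2 of 5 endothelial and 3 of 4 other immune cell genes were lower in TG mice. In J20 mice they were 5 of 8, 7 of 7, 1 of 7, 5 of 5 and 2 of 3. The part of other cell types in the member results was not tested.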

How the data were processed

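DNAm was measured by RRBS in the entorhinal cortex of the mice described above. The authors trimmed reads with Trim Galore 0.4.4, aligned them to GRCm38 with Bismark 0.19.0 and Bowtie2 2.3.4.1, per the submitters' processing notes (the study's methods name another version of Trim Galore), and filtered sites on coverage and smoothed them with BiSeq, per those methods. The deposited values are methylation fractions, 1 per strand, site and mouse, in 1 table per model, and no counts or coverage, so the reads behind each value are unknown and n limits the precision. Read totals per sample were not used here. Here strands were averaged per CpG, and 501 rTg4510 and 1298 J20 rows that are not at a CpG of GRCm38 were left out. Of all values, 18.1% and 20.2% were exactly 0 or 1 and were moved to the nearest value observed between them. Smoothing makes neighbouring sites dependent.

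Groups came from the genotype and age in the sample labels. A beta regression with a probit link (Python 3.11.15, numba 0.67.0) held genotype, age and their interaction, with age counted from the oldest age, and was fitted to every site and to the mean of every protein-coding gene with at least 3 sites that had a value in every mouse. The interaction was tested by likelihood ratio and the genotype effect by a Wald test, at the oldest age or over all ages in a model without the interaction. P-values were adjusted over all sites or all genes. Single sites and genes were also tested among the mice of the oldest age by a two-sided exact permutation test (scipy 1.17.1). The fitting code was tested on simulated data. Alternatives were a logit link, limma 3.58.1 (R 4.3.3) on log2 ratios of the fraction to 1 minus the fraction, levels squeezed away from 0 and 1, other filters, windows and tests, a block by sample letter, and fits without single mice. A call counted as kept without a mouse if its p did not exceed the largest p called in the full fit.

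Sites were named where they were called, at most 10 per test and model, together with the 5 of smallest p in each test, 1 per run of sites at most 100 bp apart, and genes by their role in the list. The members, gene lists and tests were chosen with earlier results of these data known. Sequences were read from GRCm38.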

Additional observations from a re-analysis of the deposited data

Results flagged for a closer look

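In 16 of 168 groups of mice at the oldest age, 1 mouse lay far from the rest of its group, farther than Dixon's critical value allows, and chance gives about 1 in 20. Among gene means these were Ctsd in a WT rTg4510 mouse with 2.63% (the nearest other mouse had 1.43%), Csf1r in a TG rTg4510 mouse with 89.7% (81.9%), Inpp5d in a WT J20 mouse with 33.02% (52.5%) and in a TG J20 mouse with 73.6% (57.1%), Axl in a TG J20 mouse with 10.9% (15.5%), and Itgax in a WT J20 mouse with 70.8% (86.7%). Among single sites in rTg4510 mice they were Sall1 chr8:89043232 in a TG mouse with 6.09% (2.34%), and in the Cx3cr1 window chr9:119973470 in a WT mouse with 79.2% (93.3%) and chr9:119982921 in a TG mouse with 10.1% (4.04%).

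In J20 mice the 6 called sites of the first Axl exon each had a high TG mouse, with 7.09% at chr7:25788614 (the nearest other mouse had 3.82%), 8.10% at chr7:25788626 (3.41%), 9.27% at chr7:25788637 (3.70%), 10.2% at chr7:25788655 (4.53%), 10.4% at chr7:25788665 (4.84%) and 11.1% at chr7:25788673 (4.70%). It was the same mouse, TG replicate 8, at all 6 sites, which share smoothing and are 1 observation. The site chr9:119902511 in the Cx3cr1 window had a WT J20 mouse with 88.9% (40.0%).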

How the results depend on the processing

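Counts of called member sites depended on the model and on the treatment of the levels. Squeezing moves every level and limma changes the model, so the part of levels of exactly 0% and 100% was not tested. With levels squeezed away from these bounds, and with limma, 0 member sites were called for the interaction, at the oldest age and over all ages in both models, and the calls over all sites fell to 0, 146 and 309 in rTg4510 and 0, 0 and 9 in J20 mice with squeezing, and to 0, 12 and 35 and 0, 2 and 2 with limma. In rTg4510 mice the interaction called 2 member sites, both higher. It called 1, higher, with a logit link (0.0215% of all sites were called), without the pair of WT mice with low mean levels (0.023%) and after sites with an SD below 0.02 were dropped (0.0267%), and 11 by a Wald test, 2 lower and 9 higher (0.146%). The oldest age called 11, 5 lower and 6 higher. It called 5 with a logit link, 2 lower and 3 higher (0.262%), and 6 with the SD filter, 5 lower and 1 higher (0.457%). Within 2 kb of gene starts it called 6, all higher (0.22% of all sites at any distance were called higher, and the share near gene starts was not counted). In the mice of 8 months alone it called 18, 5 lower and 13 higher, which is 0.98% of members beside 1.07% of all sites, and of the 10 sites named at the oldest age only Axl chr7:25787774 was among them (FDR of 0.00717). For a genotype effect at an age of 0 months it called 4, 1 lower and 3 higher (0.153%). Over all ages the balance turned with the mean level of each mouse as covariate, from 1 lower and 2 higher to 3 lower and 1 higher, while the lower share of all called sites went from 35.5% to 59.6%. Without the pair of WT mice it was 2 lower and 1 higher, and 46.2%. In J20 mice the interaction called 1, lower. It called 2 with a logit link, 1 each way (0.102% of all sites), 3 with that covariate (0.151%) and 3 among sites with a value for all mice (0.156%), each 2 lower and 1 higher, 0 within 2 kb of gene starts, and 6 by a Wald test, 3 each way (0.281%). The oldest age called 6, all higher, and 1 in the mice of 12 months alone, a different site called lower (0.0538% of members beside 1.04% of all sites), while the 6 Axl calls were lost there (FDRs of 0.182 to 0.226). Over all ages 6 were called, all higher (0.208% of all sites, 0.117% higher), and 9, all higher, with that covariate (0.203%, 0.0989% higher), and 0 with the SD filter (0.208%). Of member genes 0 were called, except 1 in the rTg4510 mice of 8 months alone, where 0.745% of all genes were called. The share of rTg4510 member sites lower in TG mice, 52.6%, was 43.7% within 2 kb of gene starts and 47.0% over the 2 oldest ages. Within 2 kb of gene starts and at a mean of at least 10%, it was 54.1% of 74 member sites, beside 48.6% of all such sites. At 2 months the share at a mean of at least 10% was 37.4%, and 58.0% without the pair of WT mice with low mean levels.

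Sample codes in the titles share letters between groups. Deviations of mice with the same letter correlated with a mean r of 0.0252 in rTg4510 and 0.0111 in J20 mice, with 8 of 197 and 4 of 187 pairs over 0.1, against a mean r of −0.00324 and −0.00127 for mice with different letters. The letters were not taken as pairs because not every pair was over 0.1 and the labels do not say what a letter marks. As a hint from the data, 28 of 60 and 14 of 62 mice correlated best with their own letter, among 9 and 10 letters. With the letter as a replicate block the interaction, the oldest age and all ages called 1, 16 and 8 rTg4510 member sites and 3, 7 and 15 J20 member sites, and 1046, 15591 and 16305 of all rTg4510 sites against 408, 5588 and 5081 without it. In J20 mice the block called 1535, 8962 and 7816 of all sites against 1734, 3953 and 3296. With the block the calls at Tgfbr1 chr4:47353130 (interaction FDR of 0.0550), chr4:47353142 (0.0737 at the oldest age), chr4:47353151 (0.0807), chr4:47353158 (0.0858) and chr4:47353173 (0.123) and at Tmem119 chr5:113795895 (0.0510) were lost. The cause was not tested.

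A genotype effect at an age of 0 months extrapolates the fit, and its sign on the probit scale was the opposite of that at the oldest age at the Tgfbr1 sites chr4:47353142 (-0.77), chr4:47353151 (-0.75), chr4:47353158 (-0.75) and chr4:47353173 (-0.72), the Tmem119 sites chr5:113795846 (0.64), chr5:113795850 (0.65), chr5:113795895 (0.93), chr5:113795906 (0.93) and chr5:113795933 (0.82), Axl chr7:25787774 (-1.09), Sall1 chr8:89043232 (0.56) and chr9:119921821 (-0.30) in rTg4510 mice. In J20 mice it was so at Runx1 chr16:92689061 (-0.25) and chr16:92753516 (-2.33), chr9:119902511 (-0.36) and the Axl sites chr7:25788614 (-1.13), chr7:25788626 (-1.12), chr7:25788637 (-1.10), chr7:25788655 (-1.12), chr7:25788665 (-1.13) and chr7:25788673 (-1.13). Fits without the WT mice with low mean levels, with the RefSeq bounds of Cx3cr1 and without single mice, and the count of sites farther than 2 kb from gene starts, were chosen after seeing the data.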
